A study of Mus musculus with 6 samples.

Results

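Glycosaminoglycan chains are built by a line of Golgi enzymes onto core proteins, and their sulfation decides which growth factors and morphogens they hold. The genes described here include the enzymes that start, extend, sulfate and epimerise heparan sulfate (HS), chondroitin sulfate (CS) and dermatan sulfate (DS). Others are the hyaluronan synthases and the HS-bearing core proteins of the cell surface, the glypicans and syndecans. Related enzymes that act on other sugars or on the HNK-1 epitope, Chst5 among them, are also included. All these genes were chosen by gene symbol and numbered 56 of the 13158 genes in the deposited table. Another 11 symbols of the same families (B3gat1, Chst4, Chst6, Chst9, Chst13, Has1, Hs3st5, Hs6st3, Ndst3, Ndst4 and Xylt1) were not analysed here. Of the 56 genes, 45 had enough counts to be tested and 11 did not.

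RNA came from forelimbs of wild-type C57BL/6 mouse embryos at embryonic day 13.5, and no treatment was compared. All cells carried the same alleles: Sox9-CreERT2 with Rosa26-tdTomato, which leaves a permanent red label in cells where the Sox9-driven recombinase has acted, and the tendon reporter ScxGFP. Cells positive for both labels were sorted from each region of the forelimb, proximal or distal, with 3 libraries per region, and sequenced by bulk MARS-seq, which reads the 3' ends of transcripts. The red label records history rather than present Sox9 expression. How and when the recombinase was induced is not described here. The labels do not say whether a library came from 1 embryo or a pool, or whether libraries came from separate litters, so p-values describe the spread among these libraries alone, part of which may be technical.

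A chain of HS or CS begins with a short linker on a serine of the core protein. HS is then polymerised by the exostosins Ext1 and Ext2, and modified by N-deacetylase/N-sulfotransferases, an epimerase and the 2-O-, 6-O- and 3-O-sulfotransferases. The endosulfatases Sulf1 and Sulf2 remove 6-O-sulfates again outside the cell. In growing skeletal elements HS shapes the range of FGF, hedgehog, BMP and WNT signals, while sulfated CS on aggrecan gives cartilage its water-holding matrix.

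Total counts were 1585631 to 2623788 per library and 12600 to 12924 genes were detected, so 3 counts corresponded to 1.08 to 2.00 CPM (counts scaled to a common library size by edgeR's TMM factors). The share of counts on Rn45s, the 45S pre-ribosomal RNA, was above 4% in proximal library 1 (11.7%) and distal libraries 1 (4.63%) and 2 (6.81%), and 2.20% to 2.98% in the other 3 libraries. The deviations of proximal library 1 and distal library 3 from the means of their regions ran opposite to each other (r = -0.76). This and the other correlations between libraries given below cover the tested genes with a mean log2 level above the median. Sox9 and Scx, the genes behind the sort, were detected in every library and were higher in distal ones, at summed levels of 2683 to 4486 CPM against 1043 to 1766 CPM. Of 6 tested tendon markers, Scx and Kera passed as higher in distal libraries and 0 passed as higher in proximal ones. Fmod and Mkx (log2 fold changes, distal over proximal, of 1.38 and 0.48) and Tnmd and Thbs4 (-1.89 and -1.14) did not pass. Of 6 tested cartilage markers, 5 passed the test as higher in distal libraries, and the 8 listed markers summed to 940.3 to 2038 CPM there and 253 to 580 CPM in proximal ones. All 4 muscle markers tested (of 8 listed; Pax3, Pax7, Myf5 and Ttn were not analysed here) passed as higher in proximal libraries, at 187 to 510.2 CPM against 29.0 to 41.7 CPM. Lists of endothelial, macrophage, epidermal and Schwann cell markers summed to at most 16.0 CPM in any library. The 1 blood marker analysed of 6 listed ranged from 0.632 to 57.2 CPM, highest in proximal library 3. In bulk RNA, fewer cells of a type and less RNA per cell cannot be told apart.

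The promoters of the 2 genes that passed the test, Hs3st3b1 and Chst5, are shown together with that of Hs3st3a1, which did not pass. Hs3st3b1 and Hs3st3a1, related genes on the same chromosome, both had every distal library above every proximal one, while Chst5 went the other way. Each promoter runs 5' to 3' on the strand of its gene from 250 bases before to 50 bases after the start (RefSeq, GRCm38.p6). Capitals mark the E-box letters CANNTG, the motif class that basic helix-loop-helix factors such as Scx bind.
Hs3st3b1, chr11:63922235-63922534, minus strand: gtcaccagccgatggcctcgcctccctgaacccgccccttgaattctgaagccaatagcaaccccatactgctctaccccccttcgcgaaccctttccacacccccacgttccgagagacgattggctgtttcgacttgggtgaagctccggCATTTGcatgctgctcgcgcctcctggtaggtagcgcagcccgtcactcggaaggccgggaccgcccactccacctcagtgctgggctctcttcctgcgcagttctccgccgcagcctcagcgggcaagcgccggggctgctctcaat
Hs3st3a1, chr11:64435082-64435381, plus strand: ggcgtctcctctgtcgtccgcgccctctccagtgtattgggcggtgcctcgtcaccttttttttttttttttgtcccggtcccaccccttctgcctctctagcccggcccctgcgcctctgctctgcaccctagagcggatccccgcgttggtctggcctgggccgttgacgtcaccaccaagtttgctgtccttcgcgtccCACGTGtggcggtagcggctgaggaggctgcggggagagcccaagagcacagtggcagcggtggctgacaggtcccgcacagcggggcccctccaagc
Chst5, chr8:111910150-111910449, minus strand: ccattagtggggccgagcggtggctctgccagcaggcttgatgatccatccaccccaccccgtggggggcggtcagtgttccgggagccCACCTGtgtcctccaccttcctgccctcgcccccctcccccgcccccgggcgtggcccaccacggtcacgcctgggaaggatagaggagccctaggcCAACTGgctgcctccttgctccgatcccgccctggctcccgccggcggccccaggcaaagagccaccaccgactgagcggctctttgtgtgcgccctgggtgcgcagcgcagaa
The windows of Hs3st3b1 and Hs3st3a1 held 1 E-box each and that of Chst5 held 2. The window of Chst3, which had a higher log2 fold change than Hs3st3a1 and a smaller p and is not printed, held 0. Among all 32851 promoter windows of this length 72.3% held at least 1, so such a match is common. Over 49 windows of 43 of the genes described here the share was 46.9%. The core AACAAT that SOX proteins read, searched on the other strand as ATTGTT, was in none of the 3 windows shown, in 4.08% of the 49 windows and in 10.7% of all windows. A match is a description of letters and not a binding site, and a link of these genes to Scx was not tested.

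Of the 45 tested genes, 2 differed between the regions (quasi-likelihood test of edgeR, adjusted p under 0.05): Hs3st3b1 was higher in distal libraries and Chst5 higher in proximal ones. That is 4.44% of them against 3.39% of all 9512 genes tested, so the count is close to the background. By direction, 1 gene (2.22%) passed as higher in distal libraries against 1.11% of all genes, and 1 (2.22%) as higher in proximal libraries against 2.27%. At an unadjusted p under 0.05 the share was 13 of 45 (28.9%), against 10.8% of all genes. In 6 genes (13.3%; background 7.55%) every distal library lay above every proximal one, and in 7 (15.6%; background 8.63%) the reverse held. The fitted differences had a median size of 0.36 on the log2 scale, against 0.20 for all genes tested, and 8 genes (17.8%) differed by at least 1, against 5.03% of all genes. Their signs were mixed, with 18 positive and 27 negative log2 fold changes (distal over proximal) and a median of -0.11, against 0.01 for all genes. For 23 of the 45 genes the 95% interval of the difference stayed within 1 log2 unit of no change. Of the 8 genes that differed by at least 1, all but Hs3st3b1 averaged at most 20.5 CPM over the 6 libraries. Chst1, Chst3, Chst5, Csgalnact1, Hs3st1 and Ust reached the minimum of the count filter in every library of their higher region only. The shares above were not compared with those of genes of like level.

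**Figure D1:**
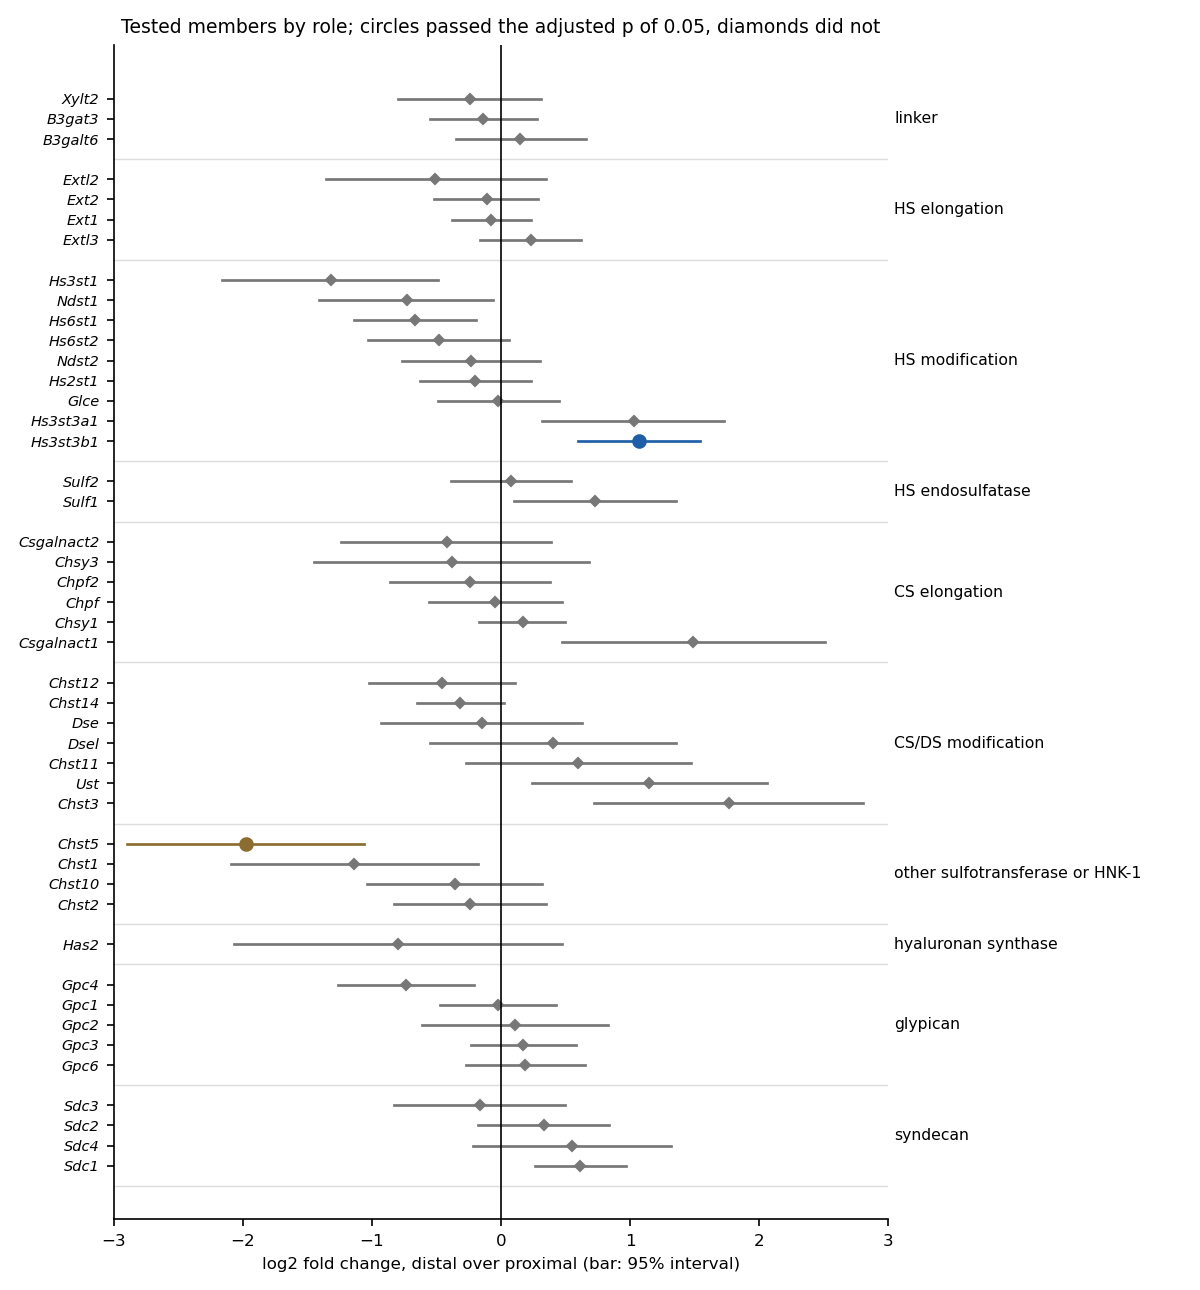
Log2 fold change, distal over proximal, of the 45 tested genes, grouped by role, with 95% intervals as bars. The circles are Hs3st3b1 (1.07) and Chst5 (-1.98), which passed an adjusted p of 0.05; the diamonds did not pass. The intervals of linker and HS elongation genes all cross 0, and both directions occur among the sulfotransferases.

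The HS-modifying enzymes held the one distal call. Of 12 such genes deposited, 9 were tested, 2 with positive and 7 with negative log2 fold changes (median -0.23). Hs3st3b1 (chromosome 11, 63885792 to 63922290, minus strand, GRCm38) encodes a 3-O-sulfotransferase, one of the enzymes that place the rarest HS sulfate, on the 3-O position of glucosamine. Its transcript stood at 42.1, 32.5 and 48.2 CPM in libraries 1 to 3 of the proximal region and at 91.0, 70.7 and 98.1 CPM in those of the distal region. The distal libraries were all higher than the proximal ones, and the means lay further apart than the lowest and highest library of either region. The means were 40.9 ± 7.89 CPM (SD, n = 3) and 86.6 ± 14.2 CPM (SD, n = 3), a 2.10-fold difference (log2 1.07, SE 0.21, 95% interval 0.60 to 1.54; adjusted p = 0.0198 in edgeR). These levels rest on 59 to 134 counts in proximal and 112 to 184 counts in distal libraries. The call was lost without proximal library 2 (edgeR adjusted p = 0.0978) or distal library 1 (0.0882). Within the libraries rich in Rn45s the distal to proximal ratio was 1.92, and within the other 3 it was 2.43. Such ratios, here and below, rest on 1 proximal library in the Rn45s-rich set and on 1 distal library in the other set.

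Hs3st3a1 (chromosome 11, 64435332 to 64522841, plus strand) encodes the sister enzyme of the same 3-O-sulfotransferase subfamily. It stood at 18.7, 9.93 and 12.2 CPM in libraries 1 to 3 of the proximal region and at 23.7, 21.5 and 36.8 CPM in those of the distal region. The regions did not overlap here either, although proximal library 1 lay just below distal library 2. The means were 13.6 ± 4.55 CPM and 27.3 ± 8.26 CPM (SD, n = 3 each), a log2 fold change of 1.03 (SE 0.32, 95% interval 0.32 to 1.73) that did not pass (edgeR adjusted p = 0.156). The distal to proximal ratio was 1.21 in the Rn45s-rich libraries and 3.32 in the others. The annotated transcripts of the sisters share 416 words of 50 bases. None is common to the last 1000 bases of both, the stretch that 3' end reads come from. Words in that stretch of either sister were not looked for in the rest of the other, and reads shared by the sisters were not tested for. No other pair of genes described here shared such a word. The gene F930015N05Rik overlaps the 5' end of Hs3st3a1 on the opposite strand, outside the last 1000 bases of Hs3st3a1.

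The sisters start 513 kb apart. Of the genes in the deposited table, Cox10, a mitochondrial assembly gene, and 2810001G20Rik lie between them. Cox10 averaged 57.0 CPM proximally and 55.9 CPM distally, with a log2 fold change of -0.04 (95% interval -0.61 to 0.54; adjusted p = 0.993 in edgeR). 2810001G20Rik was at 0.38 (-0.23 to 1.00) and did not pass. Of the other tested genes around the pair, Pmp22 had 0.62, Elac2 -0.18 and Arhgap44 0.50, and none passed. The neighbours thus gave no called difference, but their intervals are wide and the difference between Hs3st3b1 and each neighbour was not tested.

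**Figure D2:**
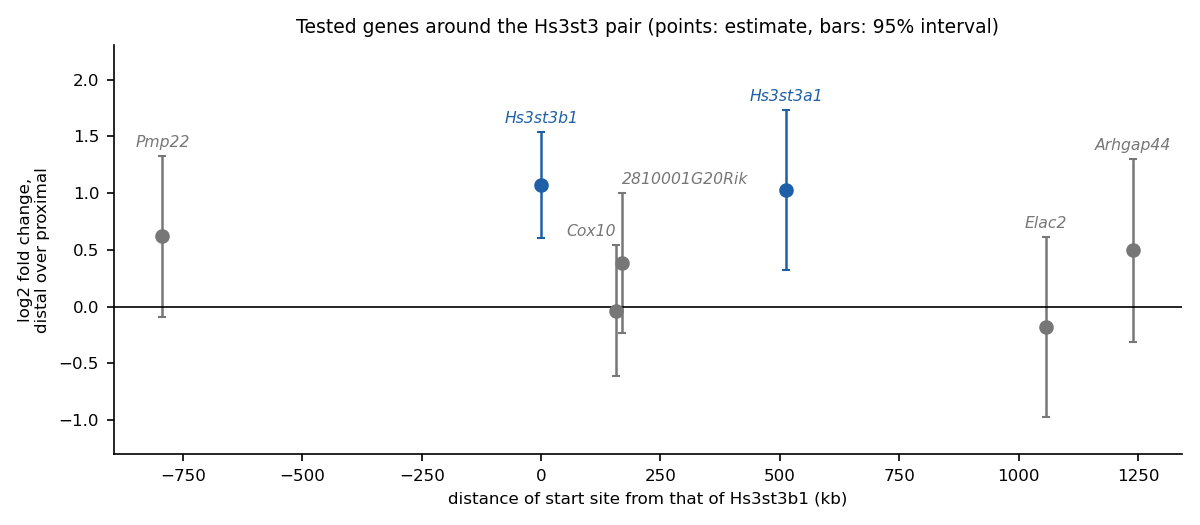
Log2 fold change (distal over proximal) of tested genes against the distance of their start from that of Hs3st3b1, in kb; bars are 95% intervals. The intervals of Hs3st3b1 (1.07) and Hs3st3a1 (1.03) lie above 0, and those of Cox10 (-0.04) and the other neighbours cross 0.

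The remaining HS sulfotransferase genes had negative estimates, none of which passed. Hs3st1, whose enzyme makes the antithrombin-binding site of heparin, stood at 13.4, 12.7 and 18.7 CPM proximally and 3.96, 9.47 and 5.02 CPM distally. The regions did not overlap, and the log2 fold change was -1.32 (SE 0.38, 95% interval -2.16 to -0.49; adjusted p = 0.112 in edgeR). Its interval and that of Hs3st3b1 lie on opposite sides of 0; the difference between these 3-O-sulfotransferase genes was not itself tested.

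Hs6st1, a 6-O-sulfotransferase, was at 81.5, 128 and 109 CPM proximally and 52.4, 73.3 and 75.8 CPM distally. All 3 proximal libraries were higher, with a log2 fold change of -0.67 (SE 0.22; adjusted p = 0.181 in edgeR). Hs6st2, of the same activity, had overlapping regions and -0.48 (SE 0.25; adjusted p = 0.566 in edgeR). Ndst1, which opens HS modification by replacing N-acetyl with N-sulfate groups, stood at 19.4, 23.2 and 16.5 CPM proximally and 8.41, 11.4 and 15.6 CPM distally. Here too the regions did not overlap, yet the gap between proximal library 3 and distal library 3 was small and the log2 fold change of -0.73 (SE 0.31) did not pass (edgeR adjusted p = 0.394).

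The other 3 HS-modifying genes tested had smaller estimates. Glce, the epimerase that turns glucuronic into iduronic acid, ranged from 23.7 to 27.9 CPM over all 6 libraries (log2 fold change -0.02, 95% interval -0.49 to 0.45). Hs2st1, which sulfates the 2-O position of iduronic acid, ranged from 40.3 to 55.0 CPM (-0.20, -0.63 to 0.23). Ndst2 had -0.23 (-0.77 to 0.30). Untested for low counts were Hs3st2, Hs3st4 and Hs3st6, each below 10 CPM in every library.

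**Figure D3:**
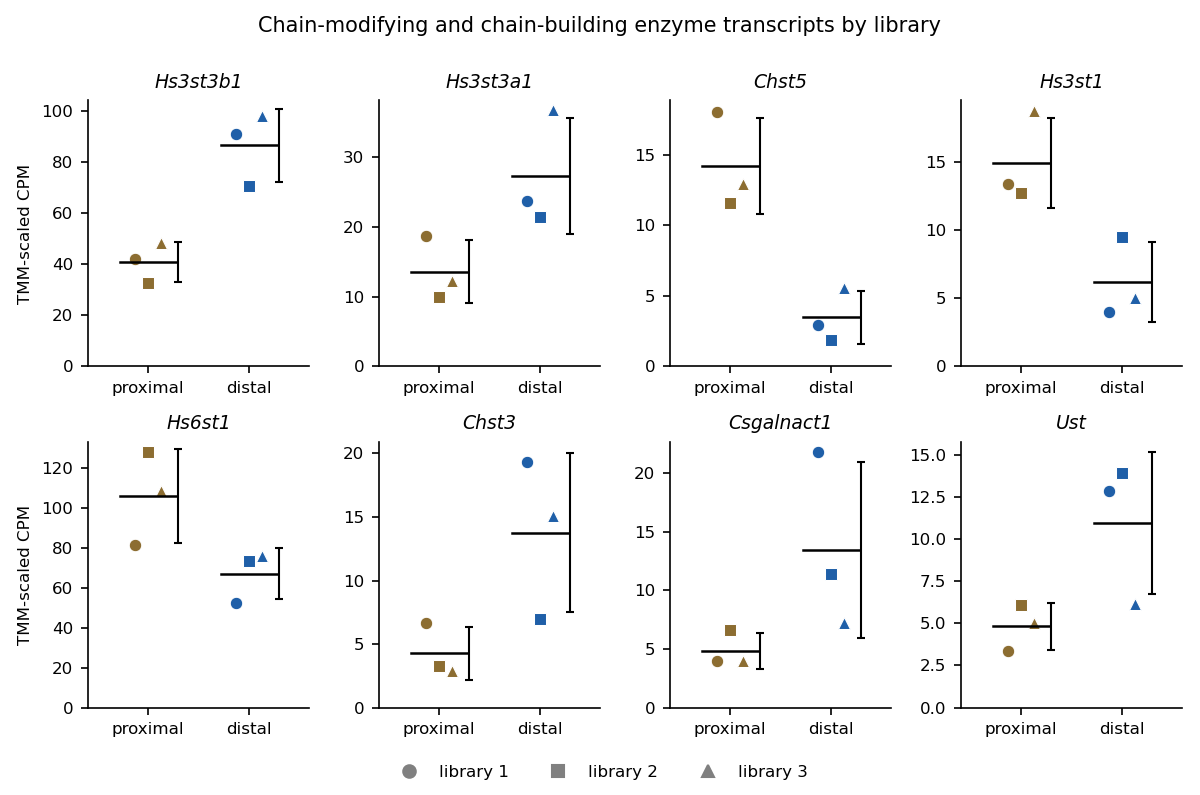
Level in each library (TMM-scaled CPM, linear axes from 0) of 8 chain-building and chain-modifying enzyme genes; symbols mark the library number, lines the mean and bars the SD (n = 3). Distal libraries lie above proximal ones in Hs3st3b1, Hs3st3a1, Chst3, Csgalnact1 and Ust and below them in Chst5, Hs3st1 and Hs6st1; of these 8, Hs3st3b1 and Chst5 passed the test.

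Chst5 was the one gene called in the proximal direction. It belongs to a class of 4 tested sulfotransferases that act on other sugars or on the HNK-1 epitope, all with negative log2 fold changes (median -0.75). Chst5 (chromosome 8, 111889136 to 111910447, minus strand) encodes an N-acetylglucosamine 6-O-sulfotransferase, known in mouse for the sulfation of keratan sulfate in the cornea. It stood at 18.0, 11.6 and 12.9 CPM in libraries 1 to 3 of the proximal region and at 2.97, 1.89 and 5.57 CPM in those of the distal region. All proximal libraries were higher, but the distal values rest on 6, 3 and 10 counts. The means of 14.2 ± 3.40 and 3.48 ± 1.89 CPM (SD, n = 3 each) gave a log2 fold change of -1.98 (SE 0.41, 95% interval -2.90 to -1.06; adjusted p = 0.0268 in edgeR), which is 3.95-fold higher in proximal libraries.

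The Chst5 call was lost without proximal library 1, 2 or 3 (edgeR adjusted p = 0.0590, 0.0682 and 0.0787) and without distal library 1 or 2 (0.131 and 0.0945), and it held without distal library 3 (0.0139). The proximal to distal ratio was 7.42 in the Rn45s-rich libraries and 2.20 in the others. The muscle markers, which moved in the same direction, summed to 407, 510.2 and 187 CPM in proximal libraries 1 to 3, so Chst5 was highest in library 1 and the markers in library 2. Their part in the result was not tested.

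Chst1, which sulfates galactose of keratan sulfate, was at 7.35, 12.7 and 19.4 CPM proximally and 5.94, 8.84 and 3.90 CPM distally. These regions overlapped, and the log2 fold change of -1.14 (SE 0.43) did not pass (edgeR adjusted p = 0.293). The proximal to distal ratio of Chst1 was 0.99 in the Rn45s-rich libraries and 4.11 in the others. Chst2, a further N-acetylglucosamine sulfotransferase, had -0.24 and Chst10, the HNK-1 sulfotransferase, -0.36. Of the untested genes of this class, B3gat2 and Chst8 stayed at or below 5.04 CPM in every library.

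Among the CS and DS enzymes no gene passed, and the 3 largest estimates, those of Chst3, Csgalnact1 and Ust, were positive. All 3 genes met the count filter through their distal libraries. Their proximal levels rest on 10, 6 and 8 counts for Chst3, 6, 12 and 11 for Csgalnact1 and 5, 11 and 14 for Ust. Chst3, the chondroitin 6-O-sulfotransferase, whose loss in humans causes a skeletal dysplasia, stood at 6.68, 3.31 and 2.88 CPM in libraries 1 to 3 of the proximal region and at 19.3, 6.95 and 15.0 CPM in those of the distal region. Distal library 2 lay only just above proximal library 1, and the other distal libraries far above it. The log2 fold change was 1.77 (SE 0.47, 95% interval 0.72 to 2.81; adjusted p = 0.0845 in edgeR). Without distal library 2 the gene passed (edgeR adjusted p = 0.0404), as it did without proximal library 1 (0.0375). Without any 1 of the other 4 libraries it did not pass (edgeR adjusted p = 0.137 to 0.365), and without distal library 1 the estimate was 1.43.

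Csgalnact1, which adds the first N-acetylgalactosamine and so commits the linker to CS, was at 4.01, 6.62 and 3.96 CPM proximally and 21.8, 11.4 and 7.25 CPM distally. The regions did not overlap, but the distal libraries spread over a wide range (log2 fold change 1.49, SE 0.46; adjusted p = 0.155 in edgeR). Without distal library 3 it passed (edgeR adjusted p = 0.0416), and without distal library 1 the estimate fell to 0.93 (0.665). Ust, which sulfates the 2-O position of uronic acid in CS and DS, was at 3.34, 6.07 and 5.04 CPM proximally and 12.9, 13.9 and 6.13 CPM distally. Distal library 3 barely cleared proximal library 2, and the difference of 1.15 (SE 0.41) did not pass (edgeR adjusted p = 0.251). The distal to proximal ratio of Csgalnact1 was 4.13 in the Rn45s-rich libraries and 1.37 in the others. For Ust these ratios were 4.01 and 1.10.

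The cartilage markers listed above were higher in the same distal libraries, most of all in library 3 (2038 CPM) and least in library 2 (940.3 CPM). Chst3 was lowest in distal library 2, while Csgalnact1 and Ust were lowest in library 3. The part of these markers in the estimates was not tested.

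The other CS and DS enzymes had smaller estimates. Chsy1, a main CS polymerase, ranged from 122 to 166 CPM with 0.17 (95% interval -0.17 to 0.50), and its partner Chpf had -0.05 (-0.56 to 0.47). Chpf2, whose 3' end overlaps that of Smarcd3 on the opposite strand, had -0.24, and Chsy3 had -0.38. Csgalnact2, the second enzyme of the commitment step, was at 6.47 to 7.35 CPM proximally and 3.96 to 6.32 CPM distally. Those ranges did not overlap, yet the log2 fold change of -0.42 (SE 0.37) did not pass (edgeR adjusted p = 0.841).

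Chst14, the dermatan 4-O-sulfotransferase, was at 91.5, 94.9 and 98.9 CPM proximally and 76.2, 76.4 and 76.9 CPM distally. The regions were separate and each was narrow, but the fold change was small at -0.32 (SE 0.15, 95% interval -0.65 to 0.02; adjusted p = 0.521 in edgeR). The chondroitin 4-O-sulfotransferase genes Chst11 and Chst12 had 0.60 and -0.46, and the DS epimerase genes Dse and Dsel -0.15 and 0.40, none of which passed. Chst7 and Chst15 were untested, and Chst15 lies inside the annotated span of Fgfr2 on the same strand.

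Genes of the common linker and of HS polymerisation gave no call. The 95% interval stayed within 1 log2 unit of no change in all 3 tested linker genes and in 3 of 4 tested HS elongation genes. Ext1, one subunit of the HS polymerase, stood at 130.3, 142 and 139 CPM proximally and 136, 123 and 132 CPM distally. The regions overlapped (log2 fold change -0.08, SE 0.14, 95% interval -0.38 to 0.23; adjusted p = 0.951 in edgeR). Ext2, the other subunit, had -0.11 (-0.52 to 0.29), although its 3' end overlaps that of Alx4 on the opposite strand and reads of the pair cannot be told apart without a stated strand setting.

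Extl3, which starts HS chains, had 0.23 (-0.16 to 0.62) and Extl2 -0.51 (-1.36 to 0.35). Of the linker genes, the xylosyltransferase gene Xylt2 had -0.24 (-0.80 to 0.31), the galactosyltransferase gene B3galt6 0.15 (-0.35 to 0.66) and the glucuronosyltransferase gene B3gat3 -0.14 (-0.55 to 0.28). All 7 tested genes of these classes thus had estimates between -0.51 and 0.23. Extl1 and B4galt7 were at or below 6.68 CPM and untested.

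Sulf1 and Sulf2, the extracellular endosulfatases, did not pass. Sulf1 was at 45.4, 75.6 and 65.8 CPM proximally and 90.5, 70.1 and 150.5 CPM distally. Distal library 2 lay within the proximal range, and distal library 3 was the highest of all. The means of 62.3 ± 15.4 and 104 ± 41.8 CPM gave a log2 fold change of 0.73 (SE 0.29, 95% interval 0.10 to 1.36; adjusted p = 0.328 in edgeR). Sulf2 was at 185, 182 and 292 CPM proximally and 238, 185 and 274 CPM distally, with 0.08 (-0.39 to 0.54); its last bases overlap Ncoa3 on the opposite strand.

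Has2, the main hyaluronan synthase of the limb, was at 34.7, 16.0 and 10.4 CPM proximally and 18.8, 11.4 and 3.34 CPM distally. The regions overlapped, and the libraries of each spread widely. The log2 fold change was -0.80 (SE 0.57, 95% interval -2.07 to 0.47; adjusted p = 0.771 in edgeR). Has3 was at or below 1.89 CPM and untested.

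The glypicans, HS-bearing proteins held to the membrane by a lipid anchor, gave no call among 5 tested genes. Gpc3, whose loss in humans causes an overgrowth syndrome, stood at 476, 717 and 689 CPM proximally and 633, 644 and 851 CPM distally. These overlapped, with means of 627 ± 132 and 709 ± 123 CPM (log2 fold change 0.17, SE 0.18, 95% interval -0.23 to 0.58; adjusted p = 0.880 in edgeR). Gpc4 (chromosome X, 52053021 to 52165252), its neighbour on the X chromosome, was at 49.4, 64.0 and 70.8 CPM proximally and 40.1, 26.5 and 44.0 CPM distally.

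All 3 proximal libraries of Gpc4 were higher than all distal ones, by a log2 fold change of -0.74 (SE 0.24, 95% interval -1.26 to -0.21) that did not pass (edgeR adjusted p = 0.175). The ratio of proximal to distal means was 1.48 in the Rn45s-rich libraries and 1.53 in the others. Gpc1 had -0.02 (-0.47 to 0.43), Gpc2 0.11 (-0.61 to 0.83) and Gpc6, which is mutated in a human short-limb dysplasia, 0.19 (-0.27 to 0.65). Gpc5 was at 0.495 to 1.34 CPM, below 3 counts in every library, and was not tested.

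**Figure D4:**
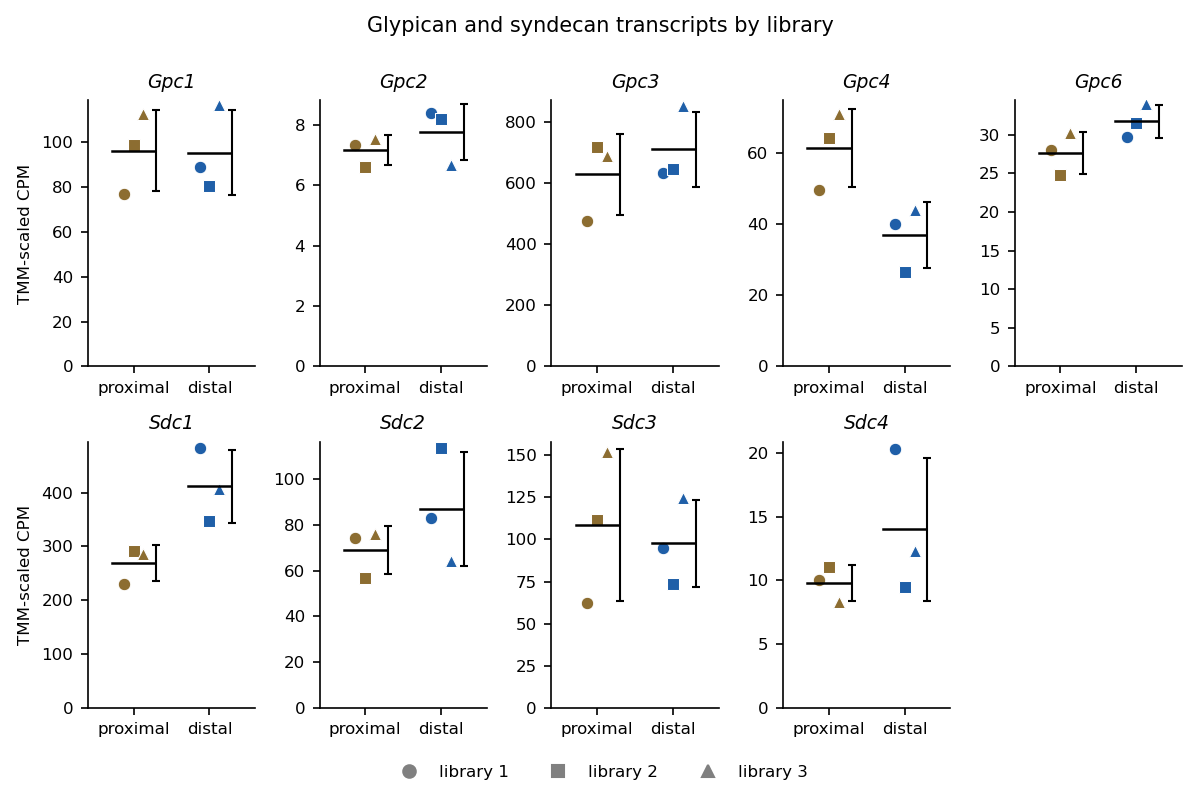
Level in each library (TMM-scaled CPM, linear axes from 0) of the 5 tested glypican and 4 syndecan genes; symbols mark the library number, lines the mean and bars the SD (n = 3). Only the panels of Gpc4 (proximal higher) and Sdc1 (distal higher) show regions that do not overlap, and neither gene passed an adjusted p of 0.05.

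The syndecans, transmembrane proteins that carry HS and in part CS, also gave no call. Sdc1 (chromosome 12, 8771323 to 8793715), known in the limb from condensing mesenchyme, stood at 229.8, 291 and 287 CPM proximally and 482, 347 and 406 CPM distally. Every distal library was higher. The means of 269 ± 34.0 and 412 ± 67.7 CPM (SD, n = 3 each) differed 1.53-fold (log2 0.61, SE 0.16, 95% interval 0.26 to 0.97; adjusted p = 0.0747 in edgeR), which missed the threshold. The distal to proximal ratio was 1.81 in the Rn45s-rich libraries and 1.41 in the others.

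Sdc2 was at 74.1, 56.8 and 75.9 CPM proximally and 83.1, 114 and 64.1 CPM distally (log2 fold change 0.33, 95% interval -0.18 to 0.84). Sdc4, a focal adhesion co-receptor, was at 10.0, 11.0 and 8.27 CPM proximally and 20.3, 9.47 and 12.3 CPM distally (0.55, -0.22 to 1.32). In both genes 1 distal library, number 2 for Sdc2 and number 1 for Sdc4, stood above the rest. Sdc3, known in chick from limb cartilage formation, spread from 62.1 to 152 CPM within the proximal libraries and had -0.16 (-0.83 to 0.50).

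Other genes of the same pathway were read from 3 lists: further core proteins and hyaluronan binders, the supply of sugar nucleotides and sulfate, and the breakdown of chains. Of 45 tested, 1 passed as higher in distal libraries and none as higher in proximal ones with edgeR. Over all genes tested the shares were 1.11% and 2.27%. At an unadjusted p under 0.05 there were 3 in the distal and 5 in the proximal direction, where 10.8% of all genes lay in either direction. In the proximal direction 1 passed with DESeq2 and 0 with limma-voom. The gene that passed was Papss2 (chromosome 19, 32595790 to 32667187), which encodes a synthase of PAPS, the sulfate donor of every sulfotransferase above, and which causes a skeletal dysplasia in humans when lost. It stood at 15.4, 5.52 and 14.0 CPM in libraries 1 to 3 of the proximal region and at 34.1, 31.6 and 28.4 CPM in those of the distal region.

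The distal libraries of Papss2 were close together and all above the proximal ones, of which library 2 was the lowest. The log2 fold change was 1.42 (SE 0.33, 95% interval 0.69 to 2.16; adjusted p = 0.0451 in edgeR). The call was lost without proximal library 2 or 3 (edgeR adjusted p = 0.0985 and 0.0944) or distal library 1 or 2 (0.168 and 0.125). Papss1, the second PAPS synthase gene, had 0.26 (-0.11 to 0.62), and Ugdh, which makes the UDP-glucuronic acid of all these chains, 0.53 (0.10 to 0.96; adjusted p = 0.270 in edgeR).

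Of 14 further core proteins and hyaluronan binders tested, none passed. Acan, the large CS proteoglycan of cartilage, was at 12.7, 0.552 and 5.75 CPM proximally and 27.2, 15.2 and 26.8 CPM distally (log2 fold change 1.92, SE 0.59, adjusted p = 0.153 in edgeR). Its level in proximal library 2 rests on 1 count. Acan passed with DESeq2. Nrp1, a part-time proteoglycan and receptor of semaphorins and VEGF, was at 69.5, 57.4 and 37.4 CPM proximally and 16.8, 31.6 and 22.3 CPM distally (-1.21, SE 0.30; adjusted p = 0.0575 in edgeR). Nrp1 also passed with DESeq2. Tgfbr3, the TGF-beta co-receptor betaglycan, had -0.82 (SE 0.25; adjusted p = 0.135 in edgeR).

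Of 16 genes of chain breakdown, 11 had negative log2 fold changes and none passed (median -0.19). The lysosomal enzyme genes Arsb, which removes 4-O-sulfate, and Glb1, the beta-galactosidase, had -0.75 (SE 0.23) and -0.62 (SE 0.21). The cell-surface protein gene Tmem2, tied to hyaluronan breakdown, had -0.66 (SE 0.22).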

How the data were processed

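The authors deposited raw counts of each gene and, for each library, normalized counts, a signal on an arbitrary scale that the authors made by dividing each library by 1 size factor (within a relative tolerance of 1e-06 of factors recomputed here); those columns were used for nothing else. Per the submitters' processing notes the tools were bcl2fastq 2.17.1.14, cutadapt 1.8.3, TopHat2, HTSeq and DESeq2 with build mm10, with no roles stated. Annotation, strand setting and any use of molecular identifiers: not given in the sources used here. Genes in the table have at least 6 counts over the 6 libraries.

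All tests used the deposited counts: edgeR 4.0.16 in R 4.3.3, TMM scaling, filterByExpr with region as the group (minimum count 10 and total 15; 9512 of 13158 genes passed), then glmQLFit (robust) and glmQLFTest with region as the only term, Benjamini-Hochberg adjusted over all of these genes, two-sided, at 0.05. SE was taken as |log2 fold change| divided by the root of the F statistic. Limits of 3 counts cover counting error only. The scripts were tested on simulated data, where 42.9% of true changes of log2 1 and 94.8% of log2 2 were recovered. Of the simulated calls 7.59% were false. No libraries of a region agreed within sampling noise (chi-square per degree of freedom 4.69 to 26.3). Other scalings moved the median of all genes by at most 0.006 on the log2 scale. Alternatives were scaling, filter, DESeq2 1.42.0, limma-voom (limma 3.58.1), the replicate number as a block, Rn45s left out, libraries left out and other thresholds; the term for the Rn45s split was chosen after seeing the data.

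The genes and lists were chosen with earlier results of these data known. Named were genes past the threshold, every glypican, syndecan, endosulfatase and hyaluronan synthase, in other classes up to 4 tested genes of highest mean CPM and any with an unadjusted p under 0.05, and of the pathway lists genes past the threshold and up to 3 of smallest p; any other was named with its values known. Gene positions are from GENCODE M21 (GRCm38) and promoters from RefSeq. Among tested genes, the 3' overlaps given above are with genes in the deposited table. In their last 1000 bases Chsy1, Gpc1, Hs6st1 and Sdc3 also overlap annotated genes outside that table, on the opposite strand. Gpc2 overlaps such a gene on the same strand. The effect of these overlaps on the counts was not tested.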

Additional observations from a re-analysis of the deposited data

How the results depend on the processing

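With the main settings 1 of the genes described passed as distal and 1 as proximal, and of the pathway genes outside that set 1 and 0. With the replicate block, the numbers shared by the regions entered as a term, the counts were 3 (Chst3, Hs3st3b1 and Sdc1) and 2 (Chst5 and Hs6st1), and 2 and 1 for the pathway genes, with edgeR adjusted p of 0.0243 for Chst3, 0.0436 for Sdc1 and 0.0320 for Hs6st1; same-numbered libraries deviated together for numbers 1 and 3 (r = 0.52 and 0.62) but not 2 (-0.23), and the labels do not say what a shared number stands for, so whether it pairs the libraries is not known and the block was not the main setting. With the term for the Rn45s split they were 4 (also Sulf1) and 2 (Chst5 and Has2), and the pathway genes higher in proximal libraries 1. Dropping proximal 1 and distal 3, the libraries of opposed deviations, gave 3 (Chst3, Csgalnact1 and Hs3st3b1) and 3 (Chst5, Gpc4 and Hs6st1), and 3 and 3 for the pathway genes; Has2 then had a log2 fold change of 0.25. At an adjusted p of 0.01 the genes described counted 0 and 0, and the pathway genes higher in distal libraries 0. Without a filter or with DESeq2 the pathway genes counted 2 and 1. Leaving out each library in turn gave 0 to 2 and 0 to 1 of the genes described, and 0 to 3 and 0 to 1 of the pathway genes. The cause of these moves was not tested. Over 49 single genes, 742 of 778 values kept their side of the threshold, 25 came to pass, 11 no longer passed and 0 called values changed sign. Of the 742, 720 also kept their sign and 22, of 9 uncalled genes (Chpf, Dse, Dsel, Extl2, Gpc1, Gpc3, Has2, Sdc3 and Sulf2), turned or came to 0. Over all genes the count of calls was 171 to 862. Levels near 3 counts, as for Chst5 in distal libraries, are limited by depth.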
